A study of Mus musculus with 12 samples.

Results

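The transcripts described here encode EP2 and EP4, a pair of receptors for prostaglandin E2, and the mechanically gated ion channel Piezo1, measured in bone-forming cells under fluid shear. The genes are Ptger2 (Entrez gene 19217), Ptger4 (19219) and Piezo1 (234839, formerly Fam38a). Their probes were taken from the array annotation wherever it gave 1 of these symbols and no other. That left 5 of 28704 probes, 1 for Ptger2, 3 for Ptger4 and 1 for Piezo1, or 3 of the 10225 genes named on the array. A further probe carried 2 symbols, Piezo1 among them, and was not counted as a member.

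The cells were MC3T3-E1, an osteoblast-like line established from mouse calvaria, and all samples came from this single line. In the shear group, confluent cells grown on glass with 5% serum were exposed for 5 h to flow pulsing at 1 Hz, at an average of 5 dyn per square centimetre, in medium with 1% serum. In the control group they were held in the same apparatus without flow, likewise in medium with 1% serum. Each group had 6 samples of total RNA, and 6 spotted 2-colour arrays each held a Cy5 and a Cy3 sample of the same group, so a group rests on 3 arrays. The pairing of replicates 1 with 2, 3 with 4 and 5 with 6 was inferred from the dyes and the design. Nothing says that the samples were separate cultures, so the p-values rest on sample-to-sample spread that could be technical.

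Between 64.2% and 82.9% of the probes had a value in a sample. Samples sharing an array correlated at 0.954 to 0.981 (Pearson, over probes) and other samples of a group at 0.873 to 0.915. A value is the log2 of a spot's net fluorescence over its block median in that sample, so 0 stands for a spot at that median. A block held 598 spots, and the median is over those with a value, so it depends on which spots lack one. Of 18 osteoblast markers listed, 9 were tested, among them Alpl, Col1a1 and Sparc with values in all 12 samples, while Runx2, Sp7 and Ibsp were not analysed here. In that list 1 gene rose, the collagen cross-linking enzyme Lox, by 2.10 on the log2 scale (adjusted p = 0.0219, limma), and 1 fell, the transcription factor Dlx5, by 0.97 (adjusted p = 0.0479). Of all probes 1.42% were called higher and 0.201% lower. Lox and Dlx5 were singled out after their values were seen, and the call of Dlx5 was lost without any 1 of the 12 samples. That of Lox was lost in 6 of 30 alternative settings, 4 of them with an array left out. The reference genes Gapdh, Actb and Gja1 stood at -0.26, 0.53 and -0.06 and did not pass. Other probes of Actb gave -0.31 and 0.82 and did not pass either. Probes for markers of other cells also gave signal, above the block median for some and below it for others. Mean log2 signals of the endothelial markers under shear were 1.75 (Cldn5), 0.93 (Cdh5), -1.05 (Emcn), -1.25 (Tek), -1.62 (Esam) and -2.15 (Eng). Those of macrophages and osteoclasts were 2.04 (Itgam), 1.77 (Tyrobp), 1.34 (Fcer1g), 0.39 (Lyz2) and -0.63 (Cd68). These are for 1 probe per gene, and some further probes of Cdh5 had too few values to be tested. None of the tested markers of macrophages and osteoclasts (5), endothelium (6), adipocytes (4), chondrocytes (4) or muscle (5) passed between the groups (limma), against 1.62% of all probes. Of these markers 1, an endothelial one, had an unadjusted p under 0.05, against 14.6% of all probes.

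Osteoblasts and osteocytes release prostaglandin E2 when fluid moves over them. EP2 and EP4 couple to the stimulatory G protein, which raises cyclic AMP and activates protein kinase A. EP4 can in addition act through phosphoinositide 3-kinase, and both are known for promoting bone formation. Piezo1 opens when the membrane is stretched and lets calcium into the cell, and it is known as a sensor of load in bone.

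The promoters are shown because the comparison concerns cells under flow, and because a hexamer known as the shear stress response element was first described in a promoter. The sequences are the 250 bases before each gene's annotated start (RefSeq, GRCm38.p6), read along the gene, 5′ to 3′, and all 3 genes were found in that table. Capitals mark the motifs searched on both strands, which were the shear stress response element GAGACC, the cAMP response element TGACGTCA, the AP-1 site TGANTCA, the TEAD site GGAATG and the GC box GGGCGG.
Ptger2, chr14:44987861-44988110, plus strand: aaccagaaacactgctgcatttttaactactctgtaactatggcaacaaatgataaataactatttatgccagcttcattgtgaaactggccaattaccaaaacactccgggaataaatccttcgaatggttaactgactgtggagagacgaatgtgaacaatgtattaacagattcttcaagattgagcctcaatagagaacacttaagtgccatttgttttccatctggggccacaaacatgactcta
Ptger4, chr15:5244188-5244437, minus strand: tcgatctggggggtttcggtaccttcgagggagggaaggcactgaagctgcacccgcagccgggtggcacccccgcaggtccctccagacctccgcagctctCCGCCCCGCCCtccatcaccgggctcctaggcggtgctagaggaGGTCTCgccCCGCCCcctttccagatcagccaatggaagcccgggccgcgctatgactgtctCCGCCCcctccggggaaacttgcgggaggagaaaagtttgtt
Piezo1, chr8:122551330-122551579, minus strand: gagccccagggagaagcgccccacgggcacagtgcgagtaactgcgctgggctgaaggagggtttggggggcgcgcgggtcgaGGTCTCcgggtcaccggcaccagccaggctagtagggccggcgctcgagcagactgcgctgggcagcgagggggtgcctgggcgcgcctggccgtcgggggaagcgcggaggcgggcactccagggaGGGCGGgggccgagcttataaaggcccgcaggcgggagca

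Ptger4 and Piezo1 each held the shear stress response element once, on the opposite strand (GGTCTC), at 104 to 99 bases before the start in Ptger4 and 167 to 162 in Piezo1. It was present in 13.7% of 32851 promoter windows of the same length. Ptger4 also held 4 GC boxes, of which the first 2 share a base, and Piezo1 held 1, against 32.7% of windows with at least 1. None of the 5 motifs was found in the Ptger2 window, which was 38.0% G and C against 66.8% for Ptger4, 74.0% for Piezo1 and a median of 52.4% over all windows. The cAMP response element was in 1.55% of all windows, the AP-1 site in 6.75% and the TEAD site in 12.6%, and these 3 were in none of the windows shown. A match is a run of letters, not a site shown to be used.

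Ptger4 encodes EP4 and had 3 probes. On probe 19018 the Cy5 samples of the control replicates 1, 3 and 5 read -1.05, -1.01 and -1.04 on the log2 scale, and the Cy3 samples of replicates 2, 4 and 6 read -1.99, -2.09 and -1.49. Under shear the Cy5 samples read -0.58, -0.39 and -0.57 and the Cy3 samples -1.03, -0.89 and -0.83. Within each dye, all 3 shear samples lay above all 3 control samples. Across the dyes the groups overlapped by 1 sample, since shear replicate 2 (-1.03) was just below control replicate 3 (-1.01). The array means ran from -1.55 to -1.26 in control and from -0.80 to -0.64 under shear and did not overlap.

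These patterns were not rare. Of the 17080 probes with a value in all samples, 15.6% had every shear array mean above every control array mean, and 9.03% had shear above control without overlap in both dyes. The spot was dim. In control replicate 4 its net fluorescence was 58, against a block median of 247.5, and its log2 signal of -2.09 was close to that sample's 5th percentile of -2.18. In shear replicate 3 the net fluorescence was 483, against a block median of 633.

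The group means of probe 19018 were -1.44 ± 0.50 (SD, n = 6) in control and -0.72 ± 0.24 (n = 6) under shear. The difference, shear minus control, was 0.73 ± 0.27 (SE) on the log2 scale, a ratio of 1.66 with a 95% interval of 1.10 to 2.49. The unadjusted p was 0.0181 and the adjusted p 0.221 (limma, Benjamini-Hochberg over 21883 probes), so it did not pass the threshold of 0.05. The difference was 0.52 in the Cy5 samples and 0.94 in the Cy3 samples. When the 2 samples of an array were treated as independent, the adjusted p was 0.00836 (limma), and when each array was averaged it was 0.192. In RNA of a whole culture, a different share of cells with a transcript and a different amount per cell cannot be told apart.

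Probe 18325 of Ptger4 was brighter, with a net fluorescence of 558 to 2268 in control and 564 to 4131 under shear, before scaling to the block. Control replicates 1 to 6 read 1.60, 1.48, 1.59, 1.41, 1.41 and 0.64, and shear replicates 1 to 6 read 1.79, 1.16, 2.10, 1.73, 2.04 and 1.56. Control replicate 6 stood apart below the others of its group, and 4 of 6 shear samples were above the highest control. Group means were 1.35 ± 0.36 (SD, n = 6) and 1.73 ± 0.34 (n = 6). The difference of 0.38 ± 0.26 (SE), a ratio of 1.30 with an interval of 0.88 to 1.92, did not pass (adjusted p = 0.552, limma). It was 0.17 with cyclic loess, 0.24 with samples centred on probes measured throughout, and 0.21 without the array of control replicates 5 and 6.

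On the third Ptger4 probe, 8039, control replicates 1, 2, 5 and 6 read 1.30, 0.91, 1.07 and 1.05. Control replicates 3 and 4 and all 6 shear samples had no value. The measured spots were above their block medians, with a net fluorescence of 832 to 1538. Why spots lack a value is not stated in the sources used here, so no bound on the shear level follows, and the probe was not tested. Of all 28704 probes, 72 (0.251%) had a value in at least 4 control samples and in no shear sample, and 165 (0.575%) showed the opposite.

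The Ptger4 probes that could be tested shared a dye difference. The Cy5 sample was above the Cy3 sample on 6 of 6 arrays for both, by a mean of 0.61 on the log2 scale for probe 19018 and 0.43 for probe 18325. Such a run was seen in 21.3% of the probes with all values. Across the 12 samples the 2 probes correlated at 0.59 (Pearson), and across the 6 array means at 0.56, values that include the dye, the array and the group they share.

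**Figure D1:**
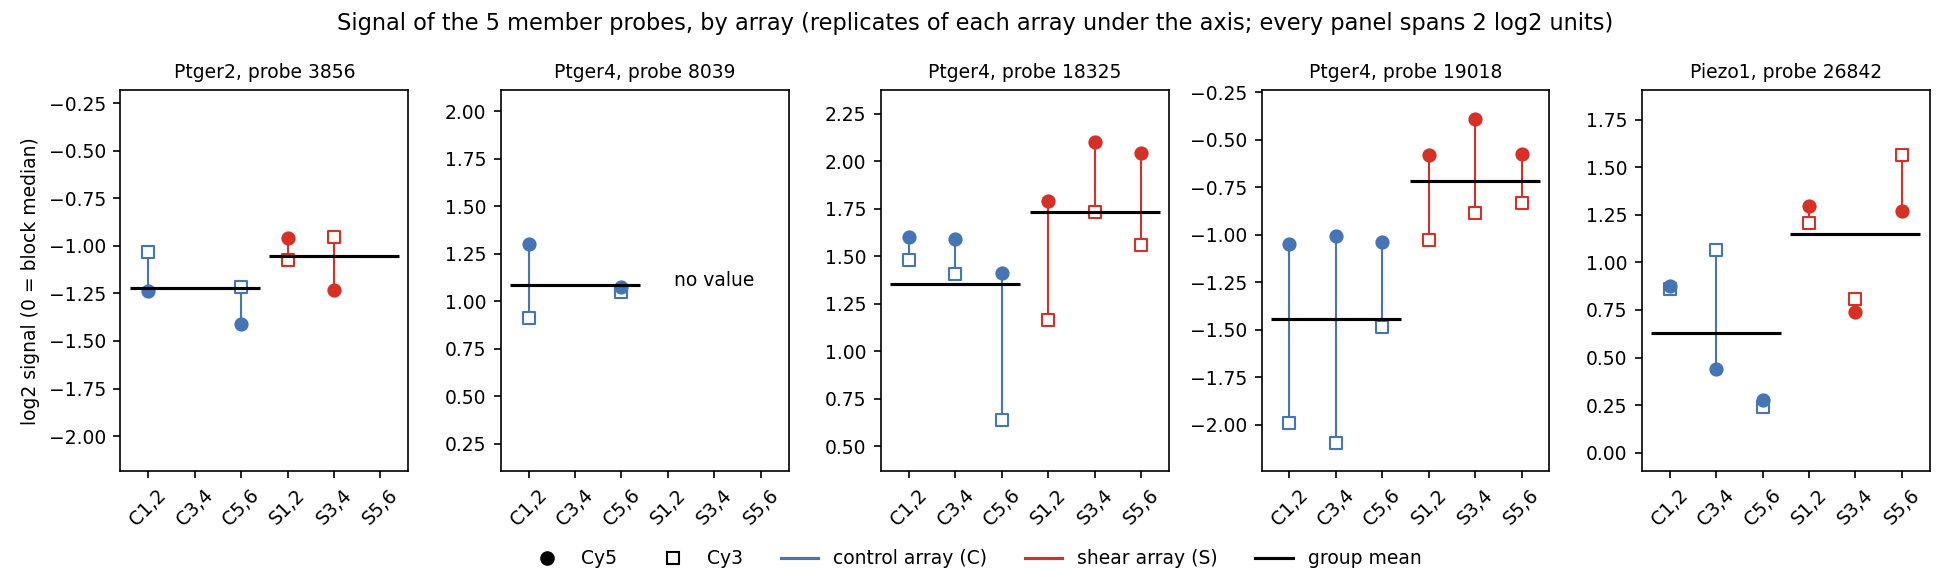
Log2 signal (vertical axis, 0 is the block median) of each member probe on the 6 arrays (horizontal axis, C for control and S for shear, with the replicates of the array). Filled circles are Cy5 and open squares Cy3 samples, a line joins the samples of an array, and black bars are group means. On Ptger4 probe 19018 shear samples sit above control samples of the same dye, and probe 8039 has no shear value.

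**Figure D2:**
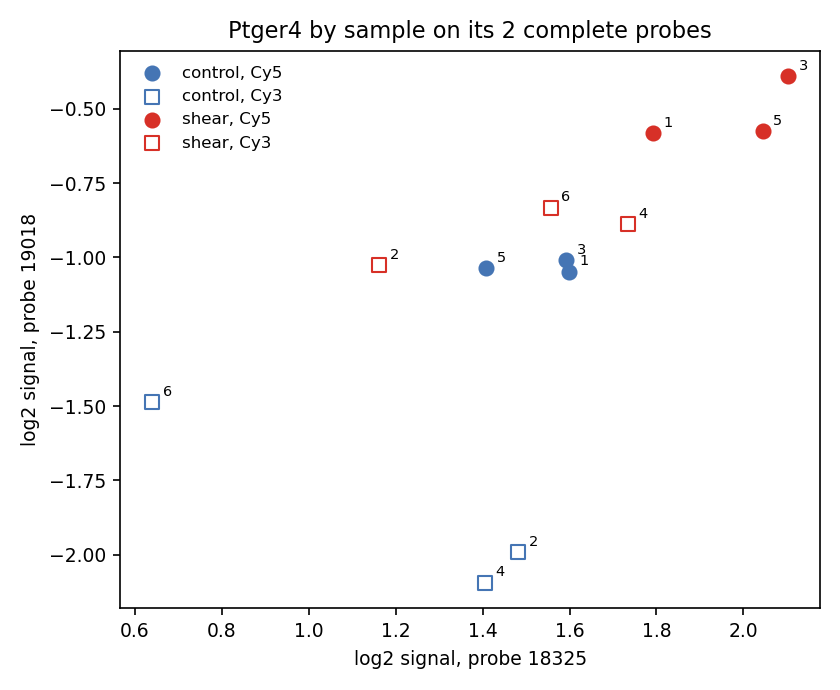
Log2 signal of the 12 samples on Ptger4 probes 18325 (horizontal) and 19018 (vertical), numbered by replicate, with circles for Cy5, squares for Cy3, blue for control and red for shear. Shear replicate 3 is highest on both probes, and control replicates 2 and 4 are low on probe 19018 but not on probe 18325.

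Ptger2, which encodes EP2, had a single probe, 3856, with a value on 2 of 3 arrays in each group. Control replicates 1, 2, 5 and 6 read -1.24, -1.03, -1.41 and -1.22, and shear replicates 1 to 4 read -0.96, -1.07, -1.23 and -0.95. Control replicates 3 and 4 and shear replicates 5 and 6, an entire array in each group, were left without a value and were not imputed. Of the shear samples 2 were above the highest control, and the groups overlapped. Group means were -1.22 ± 0.16 (SD, n = 4) and -1.05 ± 0.13 (n = 4). The difference of 0.17 ± 0.29 (SE), a ratio of 1.13 with a 95% interval of 0.72 to 1.76, did not pass (adjusted p = 0.850, limma). It was 0.27 with cyclic loess and 0.11 in the Cy3 samples alone.

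Piezo1, the calcium-permeable channel, had a value in all 12 samples on probe 26842. Control replicates 1 to 6 read 0.88, 0.86, 0.44, 1.07, 0.28 and 0.24, and shear replicates 1 to 6 read 1.30, 1.21, 0.74, 0.81, 1.27 and 1.57. Shear replicates 3 and 4, which share an array, were below control replicates 1, 2 and 4, and the other 4 shear samples were above every control sample. The array means were 0.87, 0.75 and 0.26 in control and 1.25, 0.77 and 1.42 under shear. Samples of the same array were mostly close, with a median difference of 0.08 between the dyes, and control replicates 3 and 4 differed most, by 0.62. Cy5 was the higher dye on 3 of 6 arrays.

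The group means of Piezo1 were 0.63 ± 0.35 (SD, n = 6) and 1.15 ± 0.32 (n = 6). The difference was 0.52 ± 0.28 (SE), a ratio of 1.44 with a 95% interval of 0.94 to 2.19, and did not pass (unadjusted p = 0.0871, adjusted p = 0.430, limma). It was 0.57 in the Cy5 and 0.47 in the Cy3 samples. Without the array of control replicates 5 and 6 it was 0.34, and without that of shear replicates 3 and 4 it was 0.71, with adjusted p = 0.423 (limma).

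Of the 5 member probes 4 had enough values to be tested, and none of these passed, against 1.62% of all 21883 probes tested. A probe needed an unadjusted p of at most 7.99e-04 to pass, and the smallest difference of any probe that passed higher was 0.93. At an unadjusted p under 0.05 stood 1 of the 4, Ptger4 probe 19018, against 14.6% of all probes. All 4 differences were above 0, as were 60.0% of those of all probes. None of the 3 member probes measured in all 12 samples had every shear sample above every control sample, against 6.52% of such probes. The median over all probes was 0.10, which turned to -0.02 with samples centred on the probes measured throughout. Relative to that median of 0.10 the members stood at 0.07 (Ptger2), 0.27 (Ptger4 probe 18325), 0.62 (Ptger4 probe 19018) and 0.42 (Piezo1). The intervals of Ptger2, Ptger4 probe 18325 and Piezo1 hold both no difference and an increase of over 1.5-fold, so these data do not settle a difference of that size.

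Over all probes 310 (1.42%) were called higher and 44 (0.201%) lower under shear, so 87.6% of the calls were higher. With samples centred on the probes measured throughout, 67.5% of the calls were higher. The count of 354 fell below 236, which is 1.5 times lower, without control replicate 1 (203), 3 (180) or 6 (231) or shear replicate 1 (193), 3 (201) or 6 (200). The same held without any 1 of the 6 arrays, down to 75 without that of shear replicates 3 and 4.

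**Figure D3:**
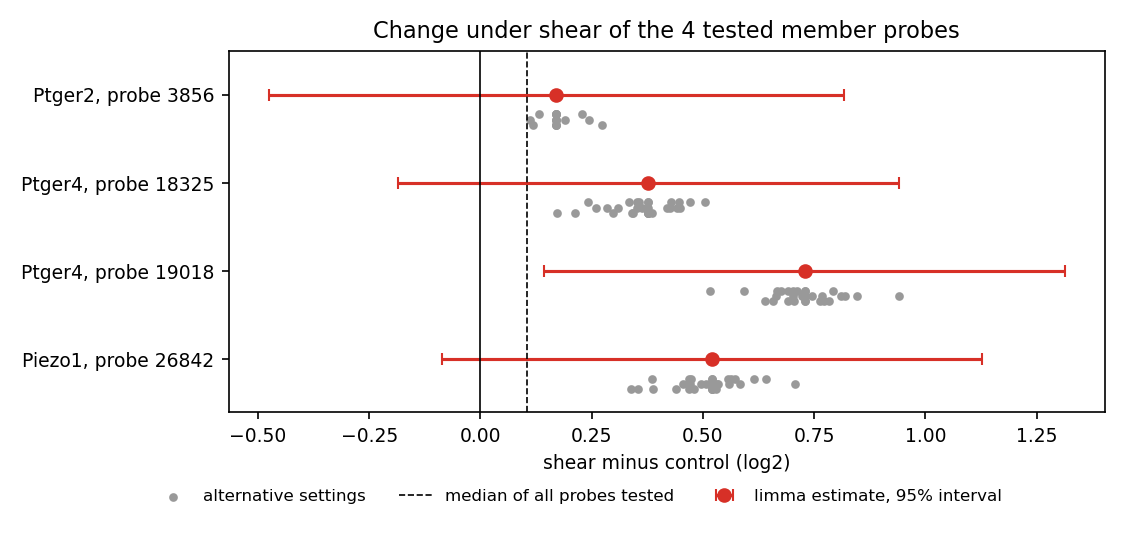
Difference between shear and control (horizontal axis, log2) of the 4 tested member probes, with the limma estimate and its 95% interval in red and the values under the alternative settings as grey dots. The interval of Ptger4 probe 19018 alone lies above 0 (0.14 to 1.31), and all grey dots are above 0.

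The pathway around the receptors was described with lists, on 1 probe per gene. Of 9 prostanoid receptors listed, 2 were tested, Ptger2 and Ptger4, with a median difference of 0.27, and the others, Ptger1 and Ptger3 among them, were not analysed here. Of 12 tested genes of prostaglandin synthesis, transport and breakdown 1 rose and none fell, against 1.42% and 0.201% of all probes, with a median of 0.32. At an unadjusted p under 0.05 stood 2 of the 12, against 14.6% of all probes. The riser was Ptges3, the cytosolic prostaglandin E synthase that also serves as a co-chaperone of Hsp90, at 1.16 ± 0.24 (SE, n = 6 per group; adjusted p = 0.0312, limma). Pla2g4a, the phospholipase that frees arachidonic acid, stood at 0.98, the reductase Ptgr1, which inactivates prostaglandins, at 0.52 and Prxl2b, a prostaglandin F synthase, at -0.63, and these did not pass. Without the array of control replicates 3 and 4 the values of Pla2g4a and Ptgr1 were 0.49 and 0.26, and without that of shear replicates 3 and 4 Ptgr1 was at 0.20. Ptgs2, the inducible cyclooxygenase, was not analysed here, and the inducible synthase Ptges had no value in any sample.

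Of 31 tested genes of the stimulatory G protein, cyclic AMP and protein kinase A, 2 rose and none fell, against the same 1.42% and 0.201%, with a median of 0.15. At an unadjusted p under 0.05 stood 8 of the 31, beside the 14.6% of all probes. Pde8a, a phosphodiesterase that breaks down cyclic AMP, rose by 1.62 ± 0.32 (SE, n = 6 per group; adjusted p = 0.0232, limma). Gng5, a G protein gamma subunit, rose by 1.20 ± 0.25 (adjusted p = 0.0312), while its other probe gave 0.38. The protein kinase A scaffold Akap12 at -1.29, the small GTPase Rap1b at 1.03 and the kinase's regulatory subunit Prkar2a at 1.00 did not pass, and Prkar2a was at 0.56 without the array of control replicates 3 and 4. Of 5 tested target genes of cyclic AMP none passed, against 1.62% of all probes. Dusp1, a MAP kinase phosphatase, stood at 1.53 ± 0.75 (SE) and the nuclear receptor Nr4a1 at 1.26 ± 0.56. Rgs2, a brake on G protein signalling, was at 0.88 ± 0.29, Fos at 0.22 and Per1 at -0.05. Other probes gave 0.96 and -0.16 for Rgs2, 0.86 for Nr4a1 and -0.67 for Fos. The median of this short list was that of Rgs2, 0.88, beside 0.10 for all probes. Of the 5, 2 had an unadjusted p under 0.05, beside 14.6%.

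Of 14 genes of receptor desensitisation and EP4 coupling none passed on the probe chosen for it, against 1.62% of all probes. The median was -0.05, and 3 had an unadjusted p under 0.05, against 14.6% of all probes. The 3 were Pik3r1, a regulatory subunit of phosphoinositide 3-kinase, at -0.92, the receptor kinase Grk3 at -1.26, and Rgs2. Another probe of Pik3r1 fell by 1.77 on the log2 scale (adjusted p = 0.0370, limma) and a further one gave -0.86. The chosen probe of Pik3r1 passed with samples centred on probes measured throughout (adjusted p = 0.0212, limma), with cyclic loess (0.0213), without the dye term (0.0495) and without control replicate 4 (0.0324). Grk3 passed with cyclic loess (adjusted p = 0.0487, limma) and without control replicate 4 (0.0322).

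Among the 15 tested mechanically gated or stretch-responsive channels none passed on the chosen probe, against 1.62% of all probes. An unadjusted p under 0.05 was found for 1 gene, against 14.6% of all probes. That gene was Lrrc8a, a subunit of the volume-regulated anion channel, at 0.76, and its other probe rose by 1.33 (adjusted p = 0.0255, limma). Piezo1 had the next smallest p, followed by Tmem63a, a channel gated by membrane tension, at 0.40, which was 0.15 without the array of shear replicates 3 and 4 and 0.63 without that of shear replicates 1 and 2. The list median was 0.12, near the 0.10 of all probes, and Piezo1 was among the higher members. Trpv4, a calcium channel of the transient receptor potential family, had values in 4 control and 2 shear samples and was not tested.

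Of 12 partners and modulators of Piezo1 none passed on the chosen probe, against 1.62% of all probes. For 2 the unadjusted p was under 0.05, beside 14.6% of all probes. Atp2a2, the calcium pump of the endoplasmic reticulum, stood at 1.34, with other probes at 1.23 and 0.41. Mdfic, an auxiliary protein of Piezo channels, stood at 0.72, as did the ubiquitin ligase Nedd4l, which was at 0.25 without the array of control replicates 3 and 4. Other probes of Nedd4l gave 0.93, 0.79 and 1.48, and none of them passed. Atp2a2 passed without the dye term (adjusted p = 0.0252, limma), without control replicate 4 (0.0413) and without shear replicate 2 (0.0302). The list median was 0.30. Another probe of Cav1, the main protein of caveolae, rose by 1.60 (adjusted p = 0.0248, limma), while the chosen one gave 0.29. None of 22 calcium, calcineurin and YAP effectors passed, against 1.62% of all probes, and the median was 0.22. Beside 14.6% of all probes, 4 of the 22 had an unadjusted p under 0.05. Of these the calcineurin subunits Ppp3r1 and Ppp3cc stood at 1.26 and 0.62 and the calcium-dependent protease Capn2 at 0.70. The remaining one, Itpr2, was lower under shear, at -0.53, with other probes at -0.97 and -0.48. Ppp3r1 passed without the dye term (adjusted p = 0.0466, limma) and, as did Akap12 (0.0489), without the array of control replicates 1 and 2 (0.0311).

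The calls depended on the settings. Without the array block, which treats the samples of an array as independent, 14 further named probes of the lists passed. Of 30 alternatives that of Ptges3 was lost in 16, Gng5 in 13 and Pde8a in 8, and with each array averaged none of the 3 held (adjusted p = 0.0966, 0.139 and 0.0632, limma). Of the settings that left out 1 sample, the call of Ptges3 was lost without control replicate 1 or 3 or shear replicate 1, 3, 5 or 6, that of Gng5 without control replicate 3 or shear replicate 1 or 3, and that of Pde8a without shear replicate 1. The probe of Pik3r1 lost its call in 18 of 29 alternatives, 8 of them with 1 sample left out (control replicate 1, 2 or 3, shear replicate 1, 3, 4, 5 or 6). Those of Cav1 and Lrrc8a lost theirs in 8 and 7 of 29, none with 1 sample left out, and in 5 and 4 of the 6 with an array left out.

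**Figure D4:**
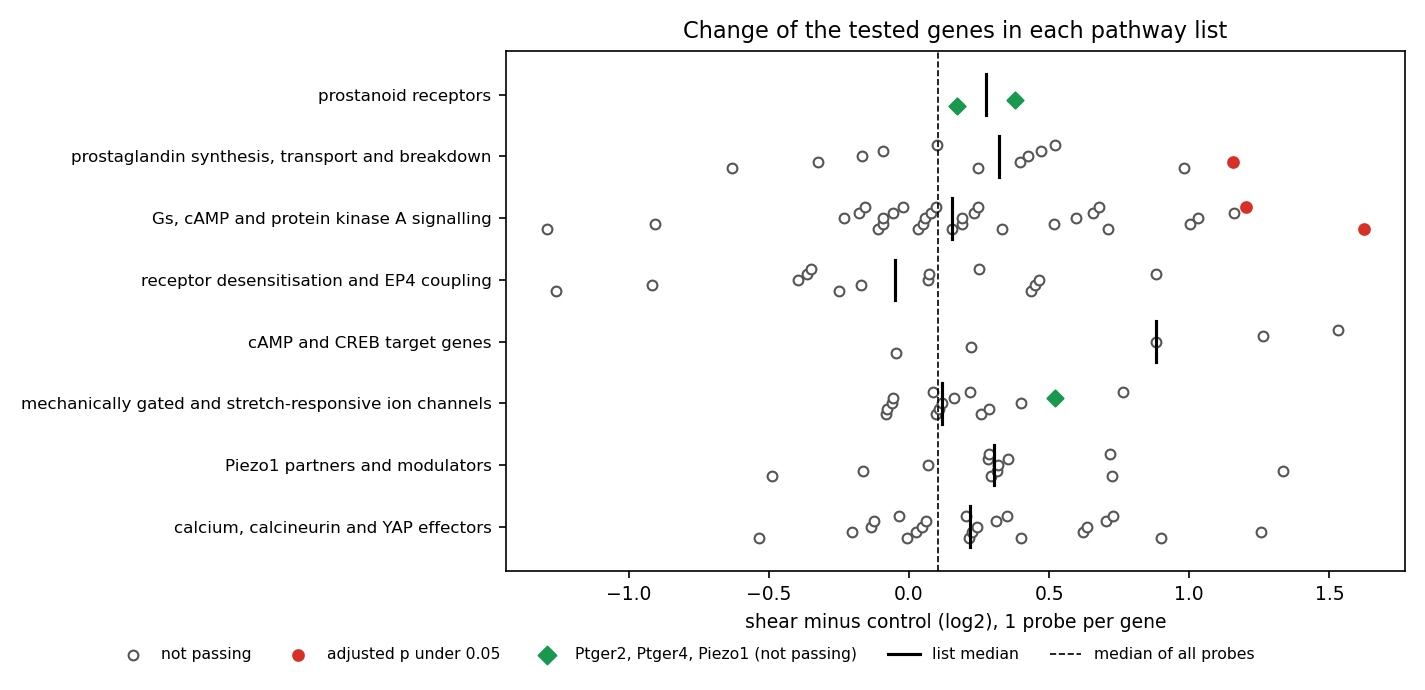
Difference between shear and control (horizontal axis, log2) of each tested gene in the 8 pathway lists (rows), 1 probe per gene. Red points passed at adjusted p under 0.05, green diamonds are Ptger2, Ptger4 (probe 18325) and Piezo1, short black lines are list medians, and the dashed line is the median of all probes at 0.10. The 3 red points are Ptges3, Gng5 and Pde8a, and the prostanoid receptor row holds Ptger2 and Ptger4 alone.

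For each member probe measured in at least 10 samples, the 5 named genes with the most similar values over the 12 samples were taken by Pearson correlation, as a description. For Piezo1 they were Hmga2 (0.97), Ybx3 (0.95), Actl6a (0.94), Abcb1b (0.93) and Mdm2 (0.93). For Ptger4 probe 18325 they were Pafah1b2 (0.97), Lsm14a (0.94), Kpna1 (0.94), Wasl (0.93) and Fam133b (0.93). For Ptger4 probe 19018 they were Eif4enif1 (0.97), Anxa7 (0.96), B4galt1 (0.95), Mt1 (0.94) and Zbtb20 (0.94). The Ptger4 probes had no gene in common among these. Correlations above 0.8 were found for 1.12% of 12629 probes with Piezo1, 2.11% of 12628 with Ptger4 probe 18325 and 2.29% with probe 19018. These samples share arrays, dyes and conditions. Piezo1 correlated at 0.39 with Ptger4 probe 18325 and 0.21 with probe 19018 over the 12 samples, and at 0.72 with Ptger2 over the 8 samples that had both.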

How the data were processed

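Per the labels, each sample's cDNA was made with Cy5-dUTP or Cy3-dUTP. The authors deposited 1 log2 value per probe and sample. Dividing out 1 scale for each block of 598 probes turned 100% of the deposited values into whole numbers (tolerance 0.002, all 576 scales solved), which recovered the net fluorescence. The scanner, any background correction and the criterion for missing spots were not given in the sources used here. Scaling to block medians hides any shift common to all genes.

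Of 18511 probes with 1 symbol, 18267 took their current symbol from RefSeq through Entrez numbers, while 937 probes had several symbols and 9256 none. Testing required 4 or more values of 6 in both groups, which 21883 probes met. limma 3.58.1 (R 4.3.3) modelled group plus dye, with arrays as a random block (duplicateCorrelation, estimated correlation 0.727). Each array holds 1 group, and the degrees of freedom count samples, so p-values can be too small. Adjustment was by the Benjamini-Hochberg method over all probes tested, with a threshold of 0.05. In leave-out fits 2 in 3 of the remaining samples of a group needed a value. For list genes with several probes, the one with most values was used, ties going to the highest mean. From each pathway list, the genes that passed and up to 3 others of smallest p were named. Fos and Per1, the remaining tested targets of cyclic AMP, were named as well, as was Itpr2. Other probes of a listed gene, and marker genes, were added where they passed. Further probes and markers were given for their values. Precision is limited by there being 6 arrays. The members and lists were chosen with earlier results of these data known. Figures were drawn with matplotlib 3.10.9.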

Additional observations from a re-analysis of the deposited data

Results flagged for a closer look

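On Ptger4 probe 18325, control replicate 6 was at 0.64 on the log2 scale, while the next lowest control sample was at 1.41, a gap of 0.799 of the group's range. It was the only sample that stood apart in this way among 9 groups of member values tested, each at both ends. For independent samples chance gives about 1 in 20 for a single test. These samples share arrays and differ in dye, so that rate is nominal, and 1 such sample among these groups can arise by chance. Control replicate 6 was a Cy3 sample, and on this probe Cy3 was the lower dye on 6 of 6 arrays. Control replicate 5, on the same array, read 1.41, and on Ptger4 probe 19018 control replicate 6 (-1.49) was the highest of the Cy3 control samples. Without control replicate 6 the difference on probe 18325 was 0.30 and did not pass (adjusted p = 0.638, limma).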

How the results depend on the processing

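All 4 member differences stayed above 0 under each alternative that could give them (30 for Ptger4 probe 18325 and Piezo1, 29 for Ptger4 probe 19018, 17 for Ptger2). Some of these alternatives could not move the differences. Dropping the array block or the dye term, or changing which probes were tested, altered the error alone. For Ptger2, leaving out samples or arrays without a value returned the same 0.17. The ranges were 0.11 to 0.27 for Ptger2, 0.17 to 0.50 and 0.52 to 0.94 for Ptger4 probes 18325 and 19018, and 0.34 to 0.71 for Piezo1. Ptger2, measured on 2 arrays per group, could not be fitted with 1 of these left out. The only alternatives under which a member passed were those without the array block, for Ptger4 probe 19018 at 0.73 (adjusted p = 0.00836, limma; range over its alternatives 0.00836 to 0.446). Adding the replicate number as a block gave the same 0.73 (adjusted p = 0.0237, limma). The numbers did not pair the groups. The deviations of same-numbered samples correlated at -0.09 to 0.12, and 2 of 12 samples correlated best with their own number. Over all probes the main count of calls was 354. It was 2664 without the array block, 2240 with the replicate block, 558 without the dye term, 235 with quantile normalization, 232 with 1 probe per gene, 92 with array means, 60 in Cy5 and 20 in Cy3 samples alone. With 1 sample left out it was 180 to 368. Without the array of control replicates 1 and 2, 3 and 4, or 5 and 6 it was 194, 234 and 143, and without that of shear replicates 1 and 2, 3 and 4, or 5 and 6 it was 210, 75 and 108. With 1 sample left out the differences were 0.30 to 0.44 and 0.64 to 0.81 for Ptger4 probes 18325 and 19018 and 0.44 to 0.61 for Piezo1. Signs turned for reference genes that did not pass. In Cy5 samples alone Gapdh was at 0.025 and Gja1 at 0.057, and without the array of control replicates 3 and 4 they were at 0.047 and 0.096. Without the arrays of shear replicates 3 and 4 and 5 and 6 Gja1 was at 0.11 and 0.055. With 1 sample left out Gja1 ran from -0.14 to 0.021, above 0 without control replicate 4. Ptger4 probe 19018 and the Ptger2 probe were below their block medians in all measured samples.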

Other observations

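Probe 5378 carries 2 symbols in the annotation, of which Piezo1 is 1, so its signal cannot be assigned to a gene. Its 5 measured control samples read -2.22 to -1.43 and its 6 shear samples -1.44 to -0.68, an overlap of 1 sample. The difference was 0.79 ± 0.28 (SE) on the log2 scale and did not pass (adjusted p = 0.195, limma, Benjamini-Hochberg).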
